A study of Sus scrofa with 12 samples.

Results

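The testes of 3 Landrace (LC) boars and 3 Hezuo (HZ) boars, all 120 days old, were compared by RNA sequencing. The members were chosen by library title and by the matching columns of the expression tables, which gave libraries Lb1 to Lb3 of LC and Hb1 to Hb3 of HZ, 6 of the 12 libraries of the series. The other libraries came from boars of 30 days, 3 of HZ (Ha1 to Ha3) and 3 of LC (La1 to La3). They serve mainly to set the breed difference at 120 days beside that at 30 days, and also enter the scaling of levels and 1 alternative fit. Each library was made from whole testis tissue of 1 boar by a strand-specific protocol after ribosomal RNA had been removed. The comparison asks which mRNAs and long noncoding RNAs (lncRNAs) differed between the breeds at the later age, and every fold change is given as Lb over Hb.

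The testis holds seminiferous tubules, in which Sertoli cells support germ cells from spermatogonia through spermatocytes to spermatids, and an interstitium with Leydig cells, vessels, fibroblasts and immune cells. Contractile peritubular myoid cells and a basement membrane enclose each tubule, and Leydig cells turn cholesterol into androgens. Fibrillar collagens, network collagens, proteoglycans and the enzymes that process and cross-link collagen form the extracellular matrix around the tubules and in the interstitium.

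The estimated mRNA counts summed to 20678367, 22707568 and 17165519 in Hb1, Hb2 and Hb3 and to 23253496, 22951618 and 18998959 in Lb1, Lb2 and Lb3. The lncRNA counts were far fewer, with 654025, 767783 and 540920 in the Hb libraries and 692856, 702851 and 639036 in the Lb libraries. Levels are given as CPM, counts scaled to a common library size with TMM factors over the 12 libraries, and the values of a group always follow the order of its library numbers. For lncRNAs, CPM refer to the counts of the lncRNA table alone. Across mRNAs, the Pearson correlation of log2 CPM was 0.942 to 0.95 between Hb libraries, 0.959 to 0.964 between Lb libraries and 0.904 to 0.929 between the breeds. These correlations run across genes, which are not independent replicates.

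Library Hb1 stood apart from Hb2 and Hb3 in the genes of Leydig cells. The 7 Leydig markers summed to 4066 CPM in Hb1, against 331 CPM in Hb2 and 268 CPM in Hb3. They summed to 4922, 7417 and 3086 CPM in Lb, to 10086, 9586 and 8750 CPM in Ha and to 13676, 9326 and 11211 CPM in La. Of the 12 libraries, Hb2 and Hb3 were thus the lowest, and Hb1 lay within the range of Lb. Where leaving out Hb1 moved the fold change of a named gene by over 1.5 times, its value without Hb1 is given as well. Such values rest on Hb2 and Hb3 alone for HZ.

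Of 16311 mRNAs tested, 628 (3.85%) were called different between the breeds at 120 days, which means an adjusted p under 0.05 in edgeR's quasi-likelihood test and an absolute log2 fold change over 1. Levels were higher in Lb for 432 of them (2.65% of those tested) and lower for 196 (1.2%). None of the 628 overlapped between the breeds, so a lack of overlap in a called gene adds nothing to its call. The share called in a list is to be read beside these shares over all mRNAs. The higher ones included many extracellular matrix genes, whereas the lower ones included genes of late spermatids. Collagen genes such as COL1A1, COL3A1 and COL4A1, the elastic fibre genes ELN and FBN1 and the myoid genes ACTA2 and CNN1 rose, and GAPDHS and AKAP4, which serve the sperm tail, fell. Over all tested mRNAs the median log2 fold change was 0.004. Among the calls with neither group at the floor of 3 counts per library, the median absolute log2 fold change was 1.69 for higher and 1.57 for lower mRNAs. With a test of log2(FPKM + 1) in limma the share of higher calls was 79.7%, and with log2(FPKM + 0.1) it was 80%, against 68.8% here, while the median over all mRNAs moved to 0.07 and 0.12. The number of calls depended on single libraries, with 1029 without Hb2, 119 without Hb3, 182 without Lb1, 97 without Lb2 and 139 without Lb3. Without Hb1, 622 mRNAs were called, of which 401 were among the 628. Of the 85 called mRNAs and lncRNAs named by rule, 37 kept their call with any 1 of the 6 libraries left out. An exact permutation test of 3 libraries against 3 cannot give a p under 0.1, so the calls rest on the spread that edgeR models across genes. In the lists below, called members beyond the 3 with the smallest adjusted p, and members that were not called other than the most abundant, were named after their values were seen.

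Fibrillar collagens, which assemble into the fibres of connective tissue, were mostly higher in Lb. Of 9 tested, 6 rose and 0 fell, with a median log2 fold change of 3.64 over the list. In limma on log2(FPKM + 1) the median was 0.78 with 4 called, in limma on log2(FPKM + 0.1) it was 2.39 with 5 called, and without Hb1 it was 4.67 with 6 called. COL2A1, of cartilage, pointed the other way, with 1.97, 3.48 and 4.55 CPM in Hb and 1.02, 0.706 and 1.28 CPM in Lb (-1.69, edgeR adjusted p = 0.0738), and DESeq2 called 7 members higher and 1 lower. Their summed level was 435, 112 and 106 CPM in Hb and 2754, 2625 and 2046 CPM in Lb. COL1A1, the first chain of type I collagen (chromosome 12, 26379087 to 26397180 in the reference Sscrofa11.1), was at 9.8, 4.88 and 6.13 CPM in Hb and at 168, 156 and 140 CPM in Lb. The breeds did not overlap, and the log2 fold change was 4.53 (standard error 0.26, edgeR adjusted p = 0.000951). COL3A1, which encodes type III collagen (chromosome 15, 93556914 to 93595678), was at 240, 44.4 and 33.9 CPM in Hb and at 1679, 1527 and 1221 CPM in Lb. Every Lb library was above every Hb library, with Hb1 the highest of Hb, and the log2 fold change was 3.86 (standard error 0.73, edgeR adjusted p = 0.0284). Without Hb1 it was 5.25 (edgeR adjusted p = 0.000522), whereas the call was lost without Hb3, Lb1, Lb2 or Lb3, with an adjusted p of up to 0.0931. COL1A2, the partner chain of type I collagen, showed the same pattern of libraries, with 119, 23 and 23.9 CPM in Hb and 720, 745 and 512 CPM in Lb. Its log2 fold change was 3.64 (edgeR adjusted p = 0.0244), and 4.83 (edgeR adjusted p = 0.000522) without Hb1, but its call too was lost without Hb3, Lb1, Lb2 or Lb3, with an adjusted p of up to 0.0888. For COL5A1, a type V collagen chain that starts fibrils, no count was found in Hb, while Lb stood at 4.95, 7.44 and 6.42 CPM. Against a floor of 3 counts per library this was at least 36.8-fold higher in Lb (edgeR adjusted p = 0.00627). COL5A2, its partner chain, was at 36.3 ± 14.4 CPM in Hb and 158 ± 6.6 CPM in Lb (SD, n = 3), without overlap. Per length, COL3A1 had the highest mean of the list in Lb, 207 FPKM, followed by COL1A2 with 86.6 FPKM, COL5A2 with 19.5 FPKM and COL1A1 with 16.9 FPKM. In whole tissue, fewer cells of a type and less RNA per cell cannot be told apart. Without Hb3, Lb1 or Lb2, 3 fibrillar collagens were called, and without Lb3 4.

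Basement membrane collagens form the sheet that underlies the tubules and vessels. Of 10 tested network collagens, 6 rose and 0 fell, and the median log2 fold change was 1.85. COL4A1 and COL4A2, the chains of the widespread form of type IV collagen, lie beside each other on chromosome 11 (76858332 to 76997409 and 76996885 to 77161617), and their annotated spans overlap at the ends. COL4A1 was at 81.9, 43.9 and 46.6 CPM in Hb and at 381, 394 and 419 CPM in Lb, with no overlap. Its log2 fold change was 2.85 (standard error 0.24, edgeR adjusted p = 0.0042). COL4A2 was at 82, 51.2 and 36.3 CPM in Hb and at 337, 399 and 348 CPM in Lb, again with no overlap, and its log2 fold change was 2.72 (standard error 0.28, edgeR adjusted p = 0.00627). The other called chains were COL4A3, COL4A4 and COL4A5, of more specialised basement membranes, with log2 fold changes of 2.15, 2.47 and 1.56. COL15A1, a collagen at the border of basement membrane and stroma, was at 38 ± 17.2 CPM in Hb and 169 ± 16.2 CPM in Lb (SD, n = 3), without overlap. Without Lb2, 2 members of the list were called, and COL15A1 was not (edgeR adjusted p = 0.0569). COL4A3 also lost its call without Hb3, COL4A4 without Lb3, and COL4A5 without any of the libraries but Hb1, with adjusted p of up to 0.0611, 0.0791 and 0.119.

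Of 18 other collagens tested, 5 rose and 0 fell (median log2 fold change 0.81). COL6A3 and COL6A2 encode chains of type VI collagen, which makes beaded microfibrils around cells. COL6A3 was at 21.3, 10.6 and 12 CPM in Hb and at 78.1, 92.9 and 86.5 CPM in Lb (log2 fold change 2.60, standard error 0.26, edgeR adjusted p = 0.00627). COL6A2 was nearly even within Hb, at 92.1, 89 and 95.2 CPM, and stood at 189, 249 and 242 CPM in Lb (log2 fold change 1.34, standard error 0.15, edgeR adjusted p = 0.0084). In both genes the breeds did not overlap. COL16A1, a collagen that sits on fibril surfaces, rose by a log2 fold change of 1.83, and COL14A1 and COL9A2 by 2.28 and 1.12. Without Hb3, Lb2 or Lb3, 3 of the list were called, COL14A1 not among them (up to 0.0543), and COL9A2 lost its call with any 1 of the 6 libraries left out (up to 0.133).

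Enzymes that fold, trim and cross-link collagen had 7 of 22 called, 7 higher and 0 lower, and 17 of 22 with a positive log2 fold change (median 0.96). P3H3, a prolyl hydroxylase family member, was at 1.28, 2.14 and 1.71 CPM in Hb and at 11.6, 9.32 and 13.7 CPM in Lb. FKBP10, a prolyl isomerase that acts on collagen in the endoplasmic reticulum, was at 7.36, 11.7 and 12.5 CPM in Hb and at 37, 46.6 and 46.6 CPM in Lb. Neither gene overlapped between the breeds, and the log2 fold changes were 2.78 for P3H3 (edgeR adjusted p = 0.0088) and 2.08 for FKBP10 (edgeR adjusted p = 0.00953). Cross-linking oxidases were represented by LOXL2 (1.88, edgeR adjusted p = 0.0119) and LOX (1.62, edgeR adjusted p = 0.0244). SERPINH1, the collagen chaperone and the most abundant gene of the list, rose by a log2 fold change of 1.26, and ADAMTS2 and ADAMTS14, which remove procollagen ends, by 2.74 (3.48 without Hb1) and 1.74. The count of 7 was 3 without Hb3, Lb1 or Lb3 and 2 without Lb2, and LOXL2 lost its call without Lb2 (edgeR adjusted p = 0.0602). LOX, SERPINH1, ADAMTS2 and ADAMTS14 lost theirs without Hb3, Lb1, Lb2 or Lb3, with adjusted p of up to 0.0953, 0.0888, 0.0813 and 0.125, and ADAMTS14 also without Hb1.

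Proteoglycans and matrix glycoproteins fill the space between fibres and cells, and 15 of 37 tested rose and 0 fell, with a median log2 fold change of 1.20. BGN, the small proteoglycan biglycan (chromosome X, 124282048 to 124295450), was at 12.4, 11.3 and 8.18 CPM in Hb and at 42.2, 60.1 and 63.7 CPM in Lb. The breeds did not overlap, and the log2 fold change was 2.43 (standard error 0.24, edgeR adjusted p = 0.00627). MFAP4, an elastic fibre protein, was at 16.2, 15.2 and 10.4 CPM in Hb and at 69.3, 60.8 and 103 CPM in Lb (log2 fold change 2.52, edgeR adjusted p = 0.00789). FBN1, the main protein of microfibrils, was at 103, 74.5 and 49.7 CPM in Hb and at 336, 348 and 360 CPM in Lb (log2 fold change 2.25, edgeR adjusted p = 0.0084). Both genes were without overlap. Further called members, ELN, MFAP2, FBLN1, FBLN2 and FBLN5, belong to elastic fibres. ELN, which encodes elastin, was at 46.1, 14.2 and 20.4 CPM in Hb and at 272, 533 and 301 CPM in Lb, a log2 fold change of 3.84 (edgeR adjusted p = 0.0103), and of 4.44 without Hb1. For MFAP2, FBLN1, FBLN2 and FBLN5 the log2 fold changes were 3.14, 1.52, 2.03 and 1.20. HSPG2, the basement membrane proteoglycan perlecan and the most abundant gene of the list, rose by 1.79. Of the list, 5 members were called without Hb3, 8 without Lb1, 4 without Lb2 and 6 without Lb3. The calls of MFAP2, FBLN1 and HSPG2 were lost without Hb3, Lb1, Lb2 or Lb3 (up to 0.069, 0.0813 and 0.123), that of HSPG2 also without Hb2, that of FBLN5 without Hb3, Lb2 or Lb3 (up to 0.109), and that of FBLN2 without Lb2 (0.0616).

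Laminins and integrins anchor cells to the matrix, and metalloproteinases remodel it. Of 31 laminins and integrins tested, 4 rose and 0 fell (median 0.72), namely the laminin chains LAMA2 (1.01) and LAMB3 (2.19) and the integrin chains ITGA5 (1.77) and ITGA8 (1.46), as log2 fold changes. ITGA8 was at 6.49, 7.06 and 8.7 CPM in Hb and at 14.7, 16.4 and 27.9 CPM in Lb, without overlap. Of 15 matrix metalloproteinases and their inhibitors tested, 3 rose and 0 fell (median 0.62). These were MMP2, a gelatinase (log2 fold change 1.01), MMP23B (2.64) and MMP28 (1.80). The genes MMP1, MMP3, MMP7, MMP20, MMP24 and MMP27 were at or under the floor of 3 counts in each library. Without Hb1, 2 laminins or integrins were called, and without Hb3, Lb1, Lb2 or Lb3 edgeR called 0. Of the metalloproteinases, edgeR called 1 without Lb1 and 0 without Hb3, Lb2 or Lb3. With all libraries, 16 laminins and integrins and 7 metalloproteinases or inhibitors had an unadjusted p under 0.05. DESeq2 called 6 and 5, but LAMA2 and MMP2 were not among them, and with RLE factors 2 and 2 were called. ITGA8 and LAMB3 lost their calls with any 1 of the 6 libraries left out, with adjusted p of up to 0.102 and 0.122, and LAMB3 was at 1.58 without Lb2. LAMA2 kept its call only without Hb2 and ITGA5 only without Hb1 (up to 0.11 and 0.136), and MMP2, MMP23B and MMP28 reached 0.136, 0.0872 and 0.0936.

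The same matrix lists were set beside their values at 30 days. At that age 1192 of 15648 tested mRNAs (7.62%) were called. The fibrillar collagens summed to 4246, 4103 and 3822 CPM in Ha and to 6149, 5484 and 6828 CPM in La, and their median log2 fold change of La over Ha was 0.53, against 3.64 at 120 days. For the basement membrane collagens the medians were 0.05 at 30 days and 1.85 at 120 days, for the proteoglycans 0.25 and 1.20, and for the processing enzymes 0.09 and 0.96. They were 0.39 and 0.81 for the other collagens, 0.27 and 0.72 for laminins and integrins, and 0.10 and 0.62 for metalloproteinases and their inhibitors. The summed level of the other collagens differed between the breeds at both ages, with means of 1339 CPM in Ha and 3364 CPM in La, and 356 CPM in Hb and 707 CPM in Lb. The difference of the breed effects was tested as an interaction of breed and age over the 12 libraries, which called 890 of 17332 mRNAs (5.14%). COL1A1 was at 196, 283 and 181 CPM in Ha and 295, 260 and 353 CPM in La, where the breeds overlapped. Its interaction, the breed effect at 120 days minus that at 30 days, was 4.02 on the log2 scale (edgeR adjusted p = 0.000372). COL4A1, at 753, 711 and 826 CPM in Ha and 855, 655 and 819 CPM in La, gave an interaction of 2.77 (edgeR adjusted p = 0.00159). Of the 432 mRNAs higher in Lb at 120 days, 385 were tested at 30 days, where 302 had the same sign and 82 were called in the same direction and 6 in the opposite one. The interaction was called for 190 of the 432, which had been selected on the same Hb and Lb libraries that enter it. Of the 196 lower mRNAs, 123 were tested at 30 days, 74 had the same sign, 19 were called in the same direction and 2 in the opposite one, and the interaction was called for 55 of them, selected in the same way. The 2 ages share no libraries.

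**Figure D1:**
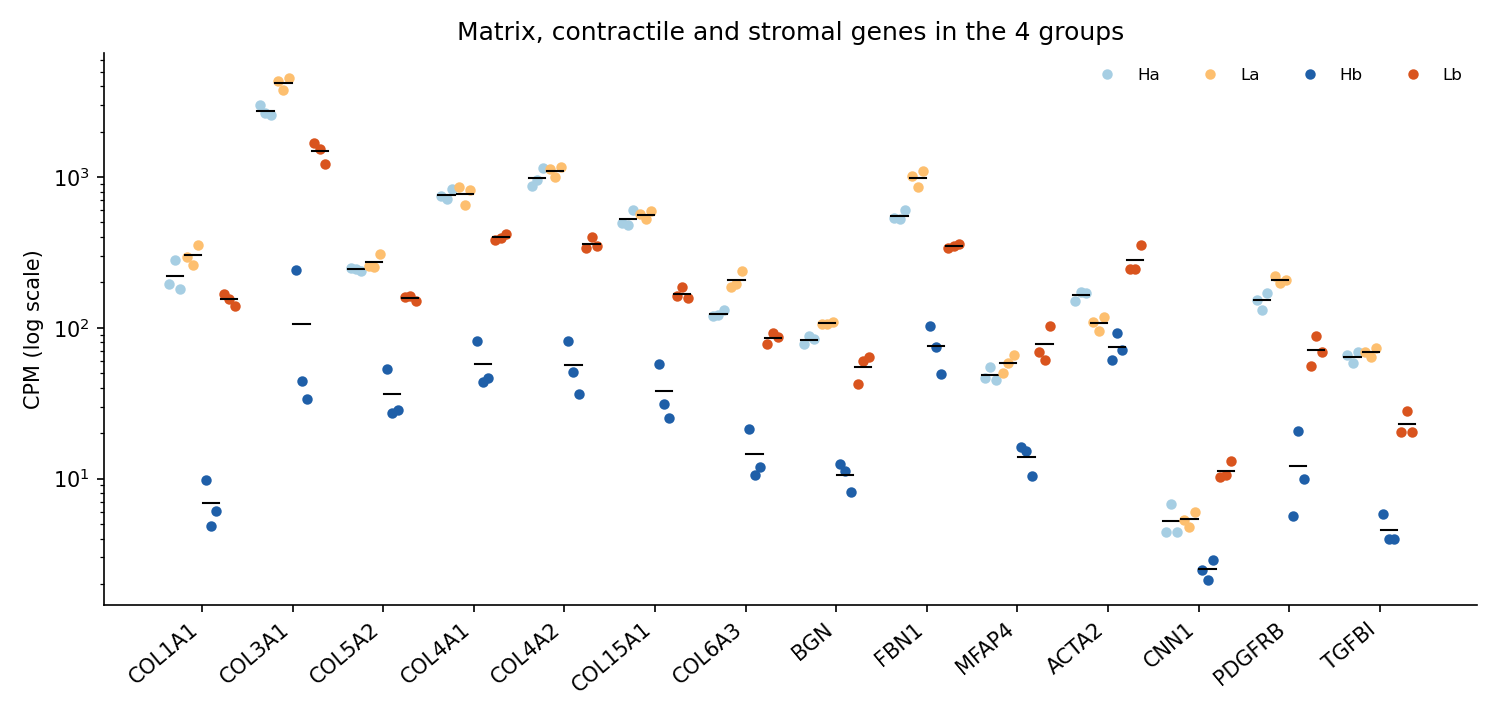
Levels of 14 matrix, contractile and stromal genes in each library (points, CPM on a log scale) of the 30-day groups (Ha, La) and the 120-day groups (Hb, Lb), with the mean of each group as a line. All 14 genes were called at 120 days, and no called mRNA overlapped between the breeds. The 3 Lb points thus lie above the 3 Hb points by selection, as for COL1A1 with 140 to 168 CPM in Lb and 4.88 to 9.8 CPM in Hb.

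The contractile cells around the tubules and the stromal fibroblasts were represented by marker lists. Of 10 peritubular myoid contractile genes, 3 rose and 0 fell, and all 10 had a positive log2 fold change (median 1.01). They summed to 209, 383 and 226 CPM in Hb and to 558, 608 and 840 CPM in Lb, with ACTA2 the most abundant. ACTA2, smooth muscle actin, was at 61.5, 91.8 and 71.2 CPM in Hb and at 245, 246 and 356 CPM in Lb. No library overlapped, and the log2 fold change was 1.96 (standard error 0.24, edgeR adjusted p = 0.00953). CNN1, the actin-binding calponin, was at 2.49, 2.14 and 2.9 CPM in Hb and at 10.2, 10.5 and 13 CPM in Lb (log2 fold change 2.21, edgeR adjusted p = 0.00953), also without overlap. ACTG2, another smooth muscle actin, rose by 3.04, a call lost without Hb3 (edgeR adjusted p = 0.0506). Actin genes are near-identical, so the split of reads between ACTA2 and ACTG2 is uncertain. SMTN, a smooth muscle protein, was near even at a log2 fold change of 0.02 (edgeR adjusted p = 0.964). The breed effect on ACTA2 differed between the ages, with 150, 174 and 171 CPM in Ha and 109, 95.5 and 117 CPM in La (interaction 2.54, edgeR adjusted p = 0.00114).

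Of 8 stromal fibroblast markers, 3 rose and 0 fell, and all 8 were positive (median 1.05). The list summed to 136, 138 and 99.1 CPM in Hb and to 208, 293 and 277 CPM in Lb, with PDGFRA the most abundant. PDGFRB, a receptor for platelet-derived growth factor on mural and stromal cells, was at 5.68, 20.8 and 9.89 CPM in Hb and at 55.9, 88.4 and 68.6 CPM in Lb. No Hb library reached an Lb library (log2 fold change 2.57, standard error 0.46, edgeR adjusted p = 0.0249). PI16, a marker of adventitial fibroblasts, rose by 2.29 (edgeR adjusted p = 0.0152) and CD34, a surface protein of stromal and endothelial cells, by 1.96 (edgeR adjusted p = 0.0163). PDGFRB and PI16 lost their calls without Hb3, Lb1, Lb2 or Lb3, and CD34 without Hb3, Lb2 or Lb3, with adjusted p of up to 0.093, 0.0611 and 0.0611, and PDGFRB was at 3.25 without Hb2. Of 9 endothelial markers, 1 rose, PECAM1, and all 9 were positive (median 0.83). PECAM1, an adhesion protein of the vessel wall, was at 9.45, 9.33 and 8.77 CPM in Hb and at 16.9, 36.9 and 17.2 CPM in Lb (edgeR adjusted p = 0.0484), and its call was lost with any 1 of the 6 libraries left out. The endothelial list summed to 201, 344 and 217 CPM in Hb and to 356, 561 and 319 CPM in Lb, where the breeds overlapped, and VWF was its most abundant gene. The part of these cell types in the matrix differences was not tested.

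**Figure D2:**
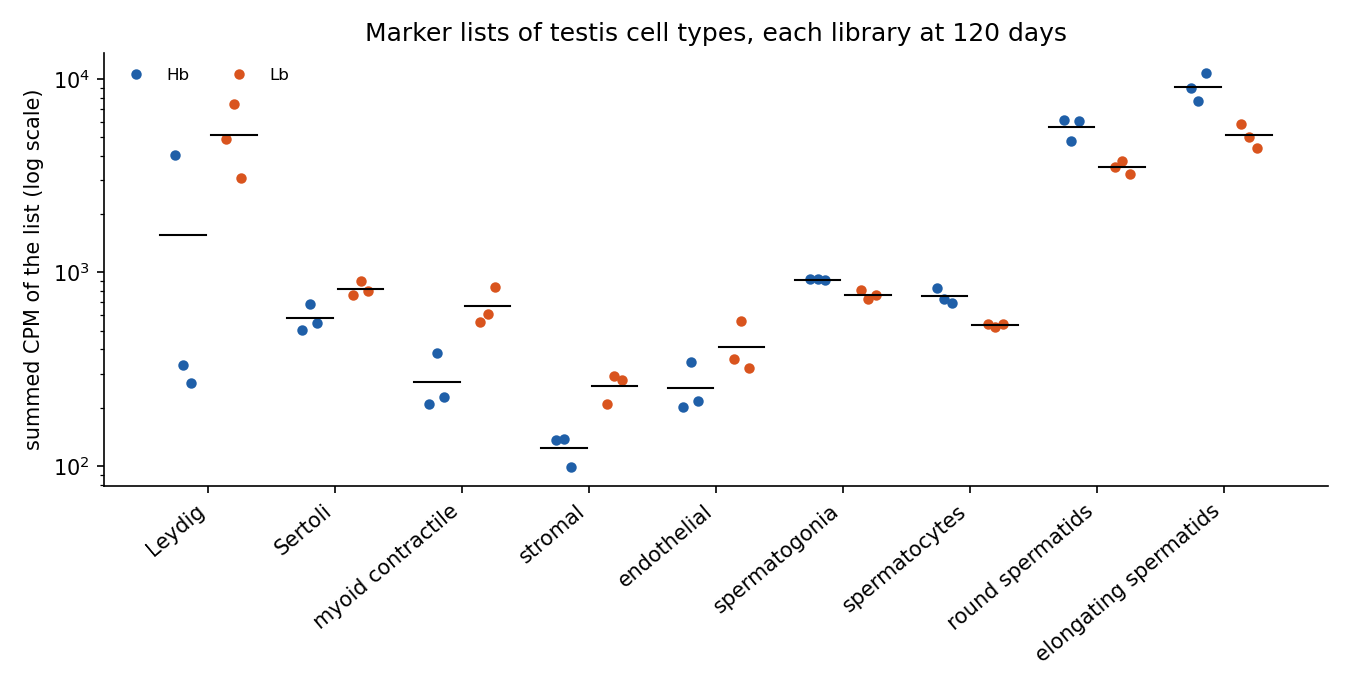
Summed level of 9 marker lists in each library at 120 days (points, CPM on a log scale) for Hb and Lb, with the mean of each group as a line. The Leydig list spans 268 to 4066 CPM within Hb, and the spermatid lists lie higher in Hb than in Lb.

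Signalling genes that act on matrix and stroma were described by lists of ligands, receptors and inhibitors. Of 25 tested genes of the TGF-beta family, 6 rose and 0 fell (median 0.70). TGFB3, a ligand of the family, was at 4.58, 4.46 and 2.57 CPM in Hb and at 10.8, 14.5 and 11.4 CPM in Lb, without overlap (log2 fold change 1.70, edgeR adjusted p = 0.0241). LTBP1 and LTBP4, which hold the latent ligand in the matrix, rose by 1.08 and 1.65. TGFBI, a matrix protein induced by the ligands, was at 5.8, 3.99 and 3.96 CPM in Hb and at 20.5, 28.1 and 20.3 CPM in Lb, without overlap (log2 fold change 2.37, edgeR adjusted p = 0.00646). FSTL1, a follistatin-like secreted protein and the most abundant of the list, rose by 2.28, with 137, 52.6 and 46.2 CPM in Hb and 330, 391 and 382 CPM in Lb, and by 2.92 (edgeR adjusted p = 0.000904) without Hb1. CHRD, an antagonist of bone morphogenetic proteins, rose by 1.56. The number called was 3 without Hb1, 9 without Hb2 and 1, TGFBI, without Hb3, Lb1, Lb2 or Lb3, and with limma on log2(FPKM + 1) it was 3. FSTL1 and TGFB3 thus lost their calls without those 4 libraries (edgeR adjusted p of up to 0.086 and 0.0903), as did LTBP1, LTBP4 and CHRD, which also lost theirs without Hb1 (up to 0.129, 0.126 and 0.142).

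Of 32 WNT ligands, receptors and antagonists tested, 5 rose and 1 fell (median 0.40). WNT2B, a ligand, was at 3.48, 1.49 and 1.06 CPM in Hb and at 9.53, 8.61 and 8.26 CPM in Lb, without overlap (log2 fold change 2.18, edgeR adjusted p = 0.0339; 2.80 without Hb1). The receptors FZD2 and FZD5 rose by 1.51 and 1.79 and the secreted antagonists SFRP1 and SFRP4 by 1.12 and 2.26. DKK2, another antagonist, was at 0.812, 3.76 and 2.97 CPM in Hb and at 0.231, 0.377 and 0.205 CPM in Lb, without overlap (log2 fold change -3.16, edgeR adjusted p = 0.0414). The 5 higher calls of edgeR became 0 without Hb3, Lb1 or Lb2 and 1 without Lb3, DKK2 was called neither there nor without Hb2, and DESeq2 called 9 higher. In the list, 15 genes had an unadjusted p under 0.05. With a library left out the adjusted p reached 0.107 for WNT2B, 0.0695 for SFRP4, 0.129 for SFRP1, 0.0759 for FZD5, 0.128 for FZD2 and 0.137 for DKK2, and FZD2 lost its call with any 1 of the 6 left out. IGFBP6, which binds insulin-like growth factors and prefers IGF2, was the only edgeR call among 13 genes of that family (median 0.45), at 5.86, 1.67 and 1.19 CPM in Hb and 20.6, 24.1 and 24.1 CPM in Lb. That was a log2 fold change of 3.04 (edgeR adjusted p = 0.0246), and of 4.01 (edgeR adjusted p = 0.00138) without Hb1, and the call was lost without Hb3, Lb1, Lb2 or Lb3, with an adjusted p of up to 0.0895. The ligand IGF1 was not called by edgeR (log2 fold change 1.34, adjusted p = 0.0924), whereas DESeq2 and both limma tests called 3 genes of the list. PDGFRB was the only call among 6 genes of the PDGF list (median 0.59).

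Leydig cell genes divided Hb1 from the other Hb libraries. CYP17A1, which makes androgen precursors (chromosome 14, 113805616 to 113820445), was at 1444, 21.2 and 19.3 CPM in Hb and at 2098, 3419 and 1658 CPM in Lb. Hb1 was thus near the Lb libraries, the breeds still did not overlap, and the gene was not called (log2 fold change 2.35, standard error 1.44, edgeR adjusted p = 0.339). INSL3, a hormone of Leydig cells, was at 2081, 97.4 and 34.8 CPM in Hb and at 1850, 2744 and 792 CPM in Lb, where Hb1 lay within the range of Lb. STAR, which carries cholesterol into mitochondria, was at 127, 6.69 and 7.78 CPM in Hb and at 324, 310 and 83.3 CPM in Lb, with the same overlap. The 7 markers summed to 4922, 7417 and 3086 CPM in Lb, none was at the floor, and CYP17A1 was the most abundant over the 6 libraries. By edgeR 0 of 7 were called (median 1.95), 3 had an unadjusted p under 0.05, DESeq2 called 0 and limma on log2(FPKM + 1) called 1. Without Hb1, which leaves only Hb2 and Hb3 with their low sums, 5 of 7 were called, all higher in Lb, and the median was 4.08. The log2 fold changes were then 6.90 for CYP17A1 (edgeR adjusted p = 0.000725), 5.07 for STAR (edgeR adjusted p = 0.0122), 4.77 for INSL3 (edgeR adjusted p = 0.0179), 4.08 for CYP11A1, the side-chain cleavage enzyme (edgeR adjusted p = 0.00622), and 2.96 for the receptor LHCGR (edgeR adjusted p = 0.0258). HSD17B3, which makes testosterone, was at 93.2, 138 and 151 CPM in Hb and at 163, 172 and 186 CPM in Lb and was not called with Hb1 (0.49, edgeR adjusted p = 0.18) or without it (0.29, edgeR adjusted p = 0.302).

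The core list of steroid synthesis, which shares 5 genes with the Leydig markers, had 0 of 10 called by edgeR, with 5 at an unadjusted p under 0.05, 2 called by DESeq2 and a median of 1.19. Without Hb1, 6 of 10 were called. Beyond the genes above these were POR (log2 fold change 1.64) and CYB5A (2.73), which pass electrons to CYP17A1, and NR5A1 (1.06), a transcription factor of steroidogenic cells. Of 17 tested genes of steroid and androstenone metabolism, 2 rose and 0 fell (median 0.32), and without Hb1 4 rose. CBR1, a carbonyl reductase (chromosome 13, 199617406 to 199622407), was at 0.696, 0.836 and 0.659 CPM in Hb and at 9.3, 13.3 and 8.98 CPM in Lb. All Lb libraries were above all Hb libraries (log2 fold change 3.87, standard error 0.32, edgeR adjusted p = 0.00411). At 30 days the same gene was at 568, 645 and 830 CPM in Ha and 666, 545 and 594 CPM in La, and the interaction was 4.0 (edgeR adjusted p = 0.000143). HSD11B2, which inactivates glucocorticoids, was at 8.64, 3.06 and 2.18 CPM in Hb and at 35.3, 96.6 and 50.1 CPM in Lb, without overlap (log2 fold change 3.76, edgeR adjusted p = 0.0182). The call of HSD11B2 was lost without Hb3, Lb2 or Lb3, with an adjusted p of up to 0.0688, and without Hb1 it was at 4.54. The 2 genes called only without Hb1 were SULT2A1, a steroid sulfotransferase (6.40, edgeR adjusted p = 0.00232), and the aromatase gene CYP19A3 (2.98, edgeR adjusted p = 0.0435).

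Sertoli cells nurse the germ cells within the tubules. All 10 markers had a positive log2 fold change (median 0.56), and 1 was called (10%, beside 2.65% of all mRNAs called higher). They summed to 502, 685 and 550 CPM in Hb and to 766, 905 and 804 CPM in Lb, with CLDN11 the most abundant. KITLG, the ligand that supports spermatogonia, was at 28.8, 21.2 and 18.6 CPM in Hb and at 49.2, 41.4 and 46 CPM in Lb (log2 fold change 1.04, edgeR adjusted p = 0.0275). The breeds did not overlap, but the call was lost without Hb3, Lb1, Lb2 or Lb3, with an adjusted p of up to 0.0977. FSHR, the receptor for follicle-stimulating hormone, overlapped between the breeds (0.22, edgeR adjusted p = 0.685).

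Germ cell markers were read by stage, beginning with the last. Elongating spermatid markers, which package DNA and build the tail, summed to 8979, 7682 and 10783 CPM in Hb and to 5854, 5045 and 4424 CPM in Lb, without overlap. Of 13 tested, 2 fell and 0 rose, and 1 had a positive log2 fold change (median -0.79). GAPDHS, the sperm form of a glycolytic enzyme, was at 580, 465 and 577 CPM in Hb and at 217, 195 and 131 CPM in Lb. No library overlapped (log2 fold change -1.53, standard error 0.20, edgeR adjusted p = 0.0118), and the call was lost without Lb2 (edgeR adjusted p = 0.0583). AKAP4, a scaffold of the tail's fibrous sheath, was at 1583, 1545 and 1892 CPM in Hb and at 1009, 660 and 608 CPM in Lb (log2 fold change -1.10, edgeR adjusted p = 0.0283). Its call was lost without Hb3, Lb2 or Lb3, with an adjusted p of up to 0.115. PRM1, the protamine that was the most abundant of the list, reached an adjusted p of 0.03 in edgeR at a log2 fold change of -0.97, short of the fold threshold. Round spermatid markers summed to 6151, 4763 and 6088 CPM in Hb and to 3518, 3774 and 3234 CPM in Lb, and 0 of 15 were called by edgeR (median -0.33), with 5 at an unadjusted p under 0.05 and 0 called by DESeq2. CRISP2, a secretory protein of the acrosome and tail and the most abundant of that list, was at 3343, 2581 and 3628 CPM in Hb and at 1715, 1742 and 1475 CPM in Lb (log2 fold change -0.91, edgeR adjusted p = 0.022), below the fold threshold.

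Spermatogonia and spermatocytes precede the spermatids. Of 11 spermatocyte genes, 0 were called by edgeR, 4 had an unadjusted p under 0.05 and DESeq2 called 1, and the median was -0.39. The list summed to 836, 731 and 695 CPM in Hb and to 544, 522 and 541 CPM in Lb. PIWIL1, which acts in piRNA silencing, led it with 507, 446 and 412 CPM in Hb and 309, 321 and 298 CPM in Lb, without overlap (log2 fold change -0.51, edgeR adjusted p = 0.0568). Spermatogonial genes summed to 921, 923 and 911 CPM in Hb and to 813, 731 and 763 CPM in Lb, and 0 of 13 tested were called by edgeR (median 0.24), with 4 at an unadjusted p under 0.05 and 0 called by DESeq2. DDX4, a germ cell helicase, was the most abundant, with 629, 511 and 570 CPM in Hb and 416, 367 and 390 CPM in Lb (log2 fold change -0.50, edgeR adjusted p = 0.0628), and NANOS2 was at the floor. The part of germ cell content in the differences of other lists was not tested.

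Proliferation genes had 0 of 24 called by edgeR (median -0.27), with 8 at an unadjusted p under 0.05 and 0 called by DESeq2. TOP2A, a topoisomerase of dividing cells and the most abundant, was at 770, 698 and 711 CPM in Hb and at 555, 461 and 460 CPM in Lb (log2 fold change -0.52, edgeR adjusted p = 0.0586). Of 12 heat shock genes, 1 fell (8.33% beside 1.2% over all mRNAs). This was HSPA1L, a chaperone of spermatids, with 721, 538 and 916 CPM in Hb and 443, 272 and 269 CPM in Lb (log2 fold change -1.10, edgeR adjusted p = 0.0484). That call was lost without Hb1, Hb3, Lb1, Lb2 or Lb3, with an adjusted p of up to 0.164. Of 18 immediate early genes, 1 rose, NR4A1, an orphan nuclear receptor (log2 fold change 1.54, edgeR adjusted p = 0.0298), a share of 5.56% beside 2.65% over all mRNAs, and the call was lost without Hb3, Lb1, Lb2 or Lb3, with an adjusted p of up to 0.102. The 13 hypoxia genes had 0 called by edgeR (median 0.16), with 2 at an unadjusted p under 0.05 and 0 by DESeq2. The 13 mitochondrially encoded genes also had 0 called by edgeR (median 0.37), with 2 at an unadjusted p under 0.05 and 0 by DESeq2. They summed to 5089, 7145 and 6430 CPM in Hb and to 7020, 7280 and 9250 CPM in Lb.

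Macrophage markers summed to 227, 274 and 178 CPM in Hb and to 214, 203 and 222 CPM in Lb, where the breeds overlapped. Of 9 tested, 1 rose (median 1.06), AIF1, a calcium-binding protein of macrophages, which was at 0.696, 0.325 and 0.33 CPM in Hb and at 1.53, 2.07 and 2.31 CPM in Lb. The call (log2 fold change 2.17, edgeR adjusted p = 0.0447) was lost without Hb2, Hb3, Lb1, Lb2 or Lb3, with an adjusted p of up to 0.145. MRC1, a scavenger receptor and the most abundant of the list, was not called (-0.60, edgeR adjusted p = 0.181). Of 11 MHC class II genes, 2 rose and all 11 were positive (median 1.20), and DESeq2 called 6. The SLA genes of this list serve to show peptides to T cells and lie in the SLA region of chromosome 7. Reads can be shared there between near-identical genes, so the levels of the SLA genes are uncertain. SLA-DRA was at 30, 32.2 and 12.6 CPM in Hb and at 59.1, 76.3 and 70.2 CPM in Lb (log2 fold change 1.5, edgeR adjusted p = 0.0453), and SLA-DMB had the same log2 fold change (edgeR adjusted p = 0.0292). Of 13 class I genes, 1 rose (7.69% beside 2.65% over all mRNAs, median 1.01). This was TAP1, a peptide transporter (log2 fold change 1.22, edgeR adjusted p = 0.028), and the gene SLA-5 was at the floor. Among 32 interferon-stimulated genes, 1 rose (3.12%, beside 2.65% over all mRNAs; median 0.58), GBP1, a guanylate-binding protein, with 5.91, 4.64 and 4.81 CPM in Hb and 39.9, 12 and 18.5 CPM in Lb (log2 fold change 2.24, edgeR adjusted p = 0.0298). Of 23 complement genes, 2 rose (8.7% beside 2.65% over all mRNAs, median 0.35). They were the protease C1S (1.07, edgeR adjusted p = 0.0267) and C4A (1.05, edgeR adjusted p = 0.0485). C4A was at 447, 587 and 370 CPM in Hb and at 697, 1053 and 1077 CPM in Lb, without overlap, but at 4226, 3467 and 3820 CPM in Ha and 1873, 1897 and 2064 CPM in La, so that the direction was opposite at 30 days (interaction 1.99, edgeR adjusted p = 0.00365). GBP1, TAP1, SLA-DRA, SLA-DMB, C1S and C4A all lost their calls without Hb3, Lb1 or Lb3, all but GBP1 did without Lb2, and GBP1, SLA-DRA and C4A did without Hb1. Without Lb1 the log2 fold change of GBP1 was 1.63. The adjusted p reached 0.0984 for GBP1, 0.0905 for TAP1, 0.138 for SLA-DRA, 0.106 for SLA-DMB, 0.093 for C1S and 0.152 for C4A.

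Markers of other cells that testis tissue could hold were at low levels or did not differ by the test. T and NK cell markers summed to 15.5, 24.4 and 24.8 CPM in Hb and to 22.8, 19.3 and 23.3 CPM in Lb, most of it CD4, and 0 of 4 tested were called by edgeR, with 1 at an unadjusted p under 0.05 and 0 by DESeq2. B and plasma cell markers summed to at most 1.1 CPM in Hb and 1.85 CPM in Lb, none passed the filter, and MS4A1 was at the floor. Of 3 mast cell markers, CPA3 and HPGDS were at the floor, and MS4A2 was at 1.91, 2.09 and 0.462 CPM in Hb and at 1.3, 0.894 and 1.64 CPM in Lb. Erythroid markers, chiefly HBB, summed to 5.68, 14.7 and 24.7 CPM in Hb and to 11.4, 15.6 and 33.9 CPM in Lb. Epithelial markers summed to 65.5, 32.5 and 83.9 CPM in Hb and to 30.5, 51 and 28 CPM in Lb, led by EPCAM, an adhesion protein, with 43.7, 17.8 and 61.5 CPM in Hb and 3.84, 28.9 and 2.72 CPM in Lb (log2 fold change -1.74, and -3.58 without Lb2). Schwann cell markers summed to 38, 147 and 57.9 CPM in Hb and to 55.7, 98.6 and 103 CPM in Lb, led by S100B. Of 4 adipocyte markers, FABP4 was at the floor, and LEP, the leptin gene, made up nearly the whole sum with 158, 78.6 and 135 CPM in Hb and 118, 83 and 60.3 CPM in Lb. Adrenal-like markers summed to 6.9, 1.21 and 3.89 CPM in Hb and to 9.11, 23.3 and 7.9 CPM in Lb, led by MRAP, an accessory protein of the corticotropin receptor (log2 fold change 1.29, and 1.95 without Hb1). In these 6 lists 0 genes were called by edgeR, 0 of the mast, erythroid, Schwann and adipocyte genes and 1 each of the epithelial and adrenal-like genes had an unadjusted p under 0.05, and DESeq2 called 1 adrenal-like gene. With all 12 libraries in 1 fit, 2 T and NK cell genes, 1 Schwann cell gene and 1 adrenal-like gene were called.

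Several of the higher genes belonged to none of the matrix lists. TMSB15B, a thymosin that binds actin monomers, was at 0.87, 0.743 and 0.725 CPM in Hb and at 24.2, 23.1 and 23.8 CPM in Lb. The breeds were far apart (log2 fold change 4.96, standard error 0.23, edgeR adjusted p = 0.000367), as they were at 30 days with 0.307, 0.562 and 0.582 CPM in Ha and 9.33, 6.28 and 6.68 CPM in La. Near-identical thymosin genes on chromosome X make the assignment of these reads uncertain. HTRA3, a secreted serine protease (chromosome 8, 2794780 to 2819686), was at 5.1, 4.27 and 3.23 CPM in Hb and at 23.5, 29.1 and 26.9 CPM in Lb, without overlap (log2 fold change 2.70, edgeR adjusted p = 0.00438). FLNA, an actin cross-linker, was among the most abundant calls, with 262, 432 and 285 CPM in Hb and 597, 620 and 791 CPM in Lb (log2 fold change 1.07, edgeR adjusted p = 0.0436). The call of FLNA was lost without Hb1, Hb3, Lb1, Lb2 or Lb3, with an adjusted p of up to 0.14. PTTG1IP, a protein that binds securin (chromosome 13, 207493656 to 207507089), was at 6.49, 12.4 and 14.6 CPM in Hb and at 149, 103 and 127 CPM in Lb (log2 fold change 3.54, edgeR adjusted p = 0.00462). At 30 days it was at 0, 1.97 and 0.738 CPM in Ha and 152, 167 and 153 CPM in La, a larger difference (interaction -3.95, edgeR adjusted p = 0.017).

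Some genes were near or at the floor in Hb. HPD, an enzyme of tyrosine breakdown (chromosome 14, 30845608 to 30857658), was at 0, 0 and 0.132 CPM in Hb and at 19.8, 13.7 and 11 CPM in Lb. The ratio of the pooled counts was 405 (95% interval 112 to 3345, from an exact Clopper-Pearson interval, counting error only; edgeR adjusted p = 0.0042). It was 243 without Hb2, and without Hb3, which held the only count of Hb, the level was at least 94.9-fold higher. At 30 days HPD was at 65.5, 68.7 and 36.8 CPM in Ha and 36.4, 13.4 and 14 CPM in La, lower in La by the test (log2 fold change -1.43, edgeR adjusted p = 0.0436). DSG3, a desmosomal cadherin, was at 0.058, 0.0464 and 0.132 CPM in Hb and at 3.75, 5.88 and 5.39 CPM in Lb, a ratio of 67.3 (95% interval 26 to 248, edgeR adjusted p = 0.00444). DUSP3, a phosphatase, and NAA30, an N-terminal acetyltransferase, had 0 counts in all Hb libraries. At 30 days, Ha held 50.5, 47.2 and 46 CPM of DUSP3 and 59.4, 58.1 and 57.1 CPM of NAA30. La held 44.6, 41.5 and 41.6 CPM of DUSP3 and 47.6, 48.1 and 53.6 CPM of NAA30. In Lb, DUSP3 was at 5.23, 8.28 and 21.1 CPM, at least 67.7-fold higher (edgeR adjusted p = 0.015), and NAA30 at 15.6, 4.38 and 8.47 CPM, at least 55.7-fold higher (edgeR adjusted p = 0.0119). FBXO22, a ubiquitin ligase subunit, was also at 0 in Hb, and at 3.75, 10.8 and 25.2 CPM in Lb, at least 77.7-fold higher (edgeR adjusted p = 0.0207). Lb3 held the highest level of both, and without it the bounds were 39.7-fold for DUSP3 and 42.6-fold for FBXO22. The call of DUSP3 was lost without Lb2 (edgeR adjusted p = 0.0611) and that of FBXO22 without Hb3 or Lb2 (up to 0.0774). For DUSP3, NAA30 and FBXO22 the assignment of reads among genes was not tested, so 0 counts in Hb need not mean absent expression. In all, 41 of the 432 higher mRNAs had Hb at the floor and 14 of the 196 lower ones had Lb there.

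The lower genes with the smallest adjusted p had varied roles. EXOSC9, a subunit of the RNA exosome (chromosome 8, 102265656 to 102278179), was at 78.9, 92.6 and 126 CPM in Hb and at 21.1, 18.6 and 18.3 CPM in Lb. The breeds did not overlap (log2 fold change -2.31, standard error 0.21, edgeR adjusted p = 0.0045), and at 30 days they did, with 13.5 to 15.3 CPM in Ha and 13 to 13.7 CPM in La (interaction -2.25, edgeR adjusted p = 0.00114). ABCG2, an efflux transporter of the cell membrane (chromosome 8, 130853414 to 130945388), was at 206, 117 and 182 CPM in Hb and at 23.2, 33.7 and 26.7 CPM in Lb, without overlap (log2 fold change -2.54, standard error 0.24, edgeR adjusted p = 0.00494). HACL1, a peroxisomal enzyme of fatty acid shortening, was at 89.2, 95.6 and 86.7 CPM in Hb and at 34.7, 29.3 and 28.8 CPM in Lb (log2 fold change -1.51, edgeR adjusted p = 0.00616), and was called in the same direction at 30 days (-1.18, edgeR adjusted p = 0.00289). GNMT, which methylates glycine, was at 7.71, 11.9 and 17.5 CPM in Hb and at 0.509, 1.18 and 0.924 CPM in Lb (log2 fold change -3.78, edgeR adjusted p = 0.00953). NCAN, a brain proteoglycan outside the matrix list, fell by 2.56 on the log2 scale, CCDC158 by 1.21, PITPNM1, a phosphatidylinositol transfer protein, by 1.24, KCNT1, a potassium channel, by 2.63, and TIAM2, an exchange factor for RAC1, by 1.67. PITPNM1 and KCNT1 lost their calls without Lb2 (edgeR adjusted p = 0.0544 for both) and TIAM2 without Lb1, Lb2 or Lb3 (up to 0.0554).

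GSG1, a germ cell gene, and UBQLNL, a ubiquilin-like gene, were among the most abundant mRNAs that fell. GSG1 was at 1631, 1065 and 1656 CPM in Hb and at 755, 615 and 600 CPM in Lb (log2 fold change -1.09, edgeR adjusted p = 0.0231), and UBQLNL at 1422, 1114 and 1571 CPM in Hb and at 728, 604 and 528 CPM in Lb (log2 fold change -1.10, edgeR adjusted p = 0.0183). Both were without overlap, but GSG1 was not called without Hb3, Lb1, Lb2 or Lb3 (up to 0.0968), nor UBQLNL without Hb3, Lb2 or Lb3 (up to 0.085). With limma on log2(FPKM + 1) or log2(FPKM + 0.1) neither was called. KRT36, a hair keratin, was at 2.32, 4.55 and 3.82 CPM in Hb and at 0, 0.0941 and 0 CPM in Lb, a ratio of 113 of Hb over Lb (95% interval 30.9 to 942, edgeR adjusted p = 0.0123). NPC1L1, a cholesterol transporter of the gut, gave a ratio of 41.9 (95% interval 16 to 156, edgeR adjusted p = 0.0192) and HABP2, a plasma protease, of 49.7 (95% interval 13.3 to 417, edgeR adjusted p = 0.0366), both Hb over Lb. These ratios rest on few counts in Lb and moved with single libraries, KRT36 to 74 without Lb1 and at least 24.4 without Lb2, NPC1L1 to 27.6 without Lb2 and 115 without Lb3, and HABP2 to 26 without Hb2, 32.8 without Lb2 and at least 9.88 without Lb1. The call of NPC1L1 was lost without Hb3, Lb1 or Lb2 (up to 0.0722) and that of HABP2 without Hb3, Lb1, Lb2 or Lb3 (up to 0.131).

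By position, chromosome Y held 8 calls among 46 tested mRNAs (17.4%), 6 higher and 2 lower, and chromosome X held 36 of 585 (6.15%), 28 higher and 8 lower. Assembled genes without a reference identifier were called in 89 of 846 cases (10.5%), against 459 of 14164 (3.24%) with a gene symbol. Of the 14 genes of the Y-linked list, 3 had an entry, and the rest, among them UTY and DDX3Y, were not found by symbol. Only EIF1AY, a translation factor, passed the filter. It was at 15.7, 18.4 and 14.4 CPM in Hb and at 16.3, 11.4 and 18.1 CPM in Lb, with overlap, and was not called by edgeR, at an unadjusted p over 0.05, or by DESeq2. AMELY was at 0 in every library of both groups. Of 78 cytosolic ribosomal protein genes 1 rose (1.28% beside 2.65% over all mRNAs, median 0.19), RPS4X on chromosome X (58149302 to 58155179). It was at 9.91, 5.29 and 0 CPM in Hb and at 725, 864 and 647 CPM in Lb (log2 fold change 7.23, edgeR adjusted p = 0.015). The same was seen at 30 days, with 29.9, 19.5 and 20.1 CPM in Ha and 2244, 1953 and 1939 CPM in La (log2 fold change 6.46, edgeR adjusted p = 7.15e-06). Ribosomal protein genes have near-identical copies in the genome, so the level of RPS4X is uncertain, and the call at 120 days was lost without Lb2 (edgeR adjusted p = 0.0616). Without Hb1 the log2 fold change was 8.05.

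Among lncRNAs, 101 of 3213 tested were called (3.14%), 49 higher in Lb (1.53%) and 52 lower (1.62%). None of the 101 overlapped between the breeds. Across the tested lncRNAs the median was 0.012 on the log2 scale, and in limma on log2(FPKM + 1) the share of higher calls was 32.3%, against 48.5% here. At the floor were 21 of the higher ones in Hb and 24 of the lower ones in Lb. Known lncRNAs were called in 33 of 2043 cases (1.62%) and intergenic transcripts of the assembly in 34 of 444 (7.66%). MSTRG.21773.1, an intergenic transcript of 2 exons on the minus strand of chromosome 15 (135279325 to 135282331), was at 1.61, 0 and 3.49 CPM in Hb and at 575, 564 and 488 CPM in Lb. The ratio of pooled counts was 337 (95% interval 115 to 1636, edgeR adjusted p = 0.00721), with 216 without Hb2 and 700 without Hb3. On chromosome Y, the overlapping transcripts MSTRG.24691.2 (42975812 to 42979724) and MSTRG.24691.1 (42975812 to 43019513) share an assembled gene, so their reads cannot be fully separated. The first was at 12.9, 28.4 and 20.9 CPM in Hb and at 725, 602 and 506 CPM in Lb (log2 fold change 4.93, edgeR adjusted p = 0.00744), and the second at 4.83, 5.98 and 0 CPM in Hb and at 738, 546 and 610 CPM in Lb (log2 fold change 7.43, edgeR adjusted p = 0.00827). MSTRG.10331.3, which overlaps a reference gene on chromosome 6 (85533651 to 85535655), had 0 counts in Hb and 381, 811 and 675 CPM in Lb, at least 128-fold higher (edgeR adjusted p = 0.00827). It was also called at 30 days, with 0, 0 and 3.5 CPM in Ha and 841, 874 and 802 CPM in La.

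Of the lower lncRNAs, MSTRG.24681.1, also intergenic on chromosome Y (42309852 to 42325173), was at 993, 852 and 746 CPM in Hb and at 38.1, 51.8 and 52.5 CPM in Lb (log2 fold change -4.09, edgeR adjusted p = 0.00502). MSTRG.5876.2 and MSTRG.5876.1, which span the same bases of chromosome 3 (128700328 to 128702092), were at 0 in Lb. The first was at 241, 208 and 185 CPM in Hb, at least 49.6-fold lower in Lb, and the second at 209, 176 and 218 CPM in Hb, at least 47.2-fold lower (edgeR adjusted p = 0.00827 for both). MSTRG.24154.2 on chromosome X (71398338 to 71412393) was at 187, 269 and 232 CPM in Hb and 0 in Lb, at least 53.8-fold lower (edgeR adjusted p = 0.00827). Chromosome Y held 6 calls among 19 tested lncRNAs (31.6%), 3 in each direction. The number of called lncRNAs was 31 without Hb1, 53 without Hb2, 54 without Hb3, 19 without Lb1, 16 without Lb2 and 11 without Lb3. The named ones kept their calls with any 1 library left out, except that MSTRG.10331.3 lost its call without Lb3 (edgeR adjusted p = 0.0567).

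**Figure D3:**
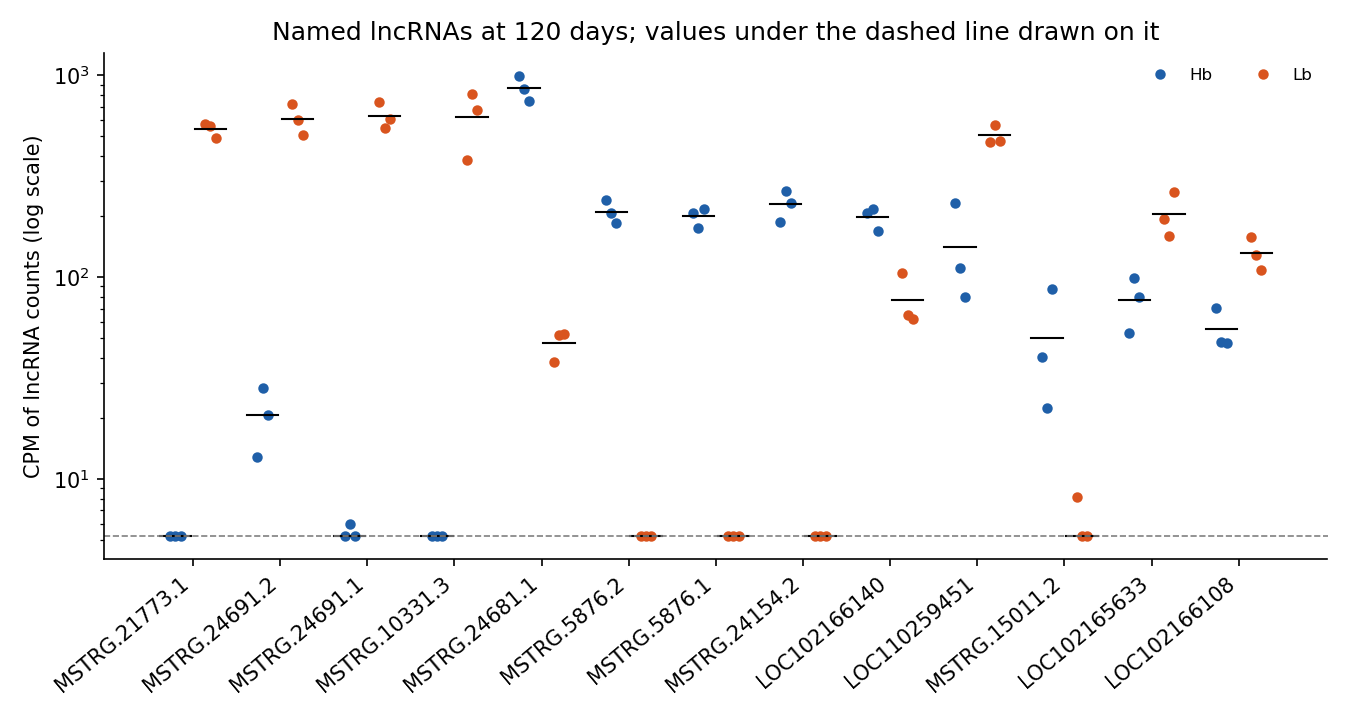
Levels of 13 named lncRNAs in each library at 120 days (points, CPM of lncRNA counts on a log scale) for Hb and Lb, with the mean of each group as a line. Values under 5.23 CPM, the highest level of 3 counts among these libraries, are drawn on the dashed line, as are the 3 Lb libraries of MSTRG.24154.2.

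Within 10 kb of the 101 called lncRNAs, 46 had an mRNA, and 45 had one that was tested, in 64 pairs. The mRNA was called in 1 of these pairs, beside 3.85% of all tested mRNAs. There the intronic transcript MSTRG.19349.1 on chromosome 13 was lower in Lb, whereas LOC100623720, the gene whose span holds it, was higher, at 42.5 ± 13.3 CPM in Hb and 175 ± 19.5 CPM in Lb (SD, n = 3; log2 fold change 2.09, edgeR adjusted p = 0.00953). That pair was named after its values were seen. The interaction of breed and age was called for 1 of 3886 lncRNAs (0.0257%), against 133 of 2096 (6.35%) called between the breeds at 30 days. It was LOC106504562, also named after its values were seen, at 3884, 1995 and 1327 CPM in Hb and 469, 1516 and 667 CPM in Lb, with overlap, and at 18271, 48182 and 25981 CPM in Ha and 62, 107 and 163 CPM in La (interaction 6.68, edgeR adjusted p = 0.0299). The interaction count was 25 without Ha3, 8 without Hb2 and 0 without Hb3, La1, La2, La3, Lb2 or Lb3, where at least 419 lncRNAs still had an unadjusted p under 0.05 in edgeR. DESeq2 called 104 with all libraries.

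Of the genes that the study named, 13 were taken as a list, and since they were chosen on these same samples they are not independent evidence of a direction. Of 12 tested, 4 rose and 1 fell by edgeR. DESeq2 called 6 higher and 3 lower, which adds DHH, CYP21A2, SPO11 and SPATS1. Those that rose in edgeR were SFRP1, WNT2B, TGFB3 and PDGFRB. SIX4, a homeobox transcription factor, was at 2.55, 3.3 and 3.56 CPM in Hb and at 0.509, 0.8 and 0.462 CPM in Lb, without overlap (log2 fold change -2.36, edgeR adjusted p = 0.0244). Without Hb3, Lb1, Lb2 or Lb3, SIX4 was not called (up to 0.096). SPATA3, of late spermatids, reached an adjusted p of 0.0269 in edgeR at -0.86 and was called by both limma tests, and the meiotic nuclease SPO11 (-1.29, edgeR adjusted p = 0.0621), SPATS1 (-1.15, edgeR adjusted p = 0.0507) and the Sertoli ligand DHH (1.08, edgeR adjusted p = 0.067) were not called by edgeR. HSD17B4, a peroxisomal enzyme (0.58, edgeR adjusted p = 0.248), and SHCBP1L (-0.15, edgeR adjusted p = 0.615) overlapped between the breeds. The entry used for PDCL2 was too low to be tested, at 0.464, 0.139 and 0.198 CPM in Hb and 0.278, 0.282 and 0.565 CPM in Lb. The study reported a significant increase of PDCL2 in its comparison of Ha and Hb, which was not made here. Other entries at the position of PDCL2 were not examined. CYP21A2, a steroid 21-hydroxylase beside C4A, was at 0.928, 0.139 and 0.0659 CPM in Hb and at 0.509, 12.1 and 2.72 CPM in Lb and was not called by edgeR (3.79, adjusted p = 0.112), with 5.50 without Hb1 and 2.17 without Lb2. Its region is duplicated in several mammals, so its level is uncertain.

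Of the lncRNAs that the study named, the 5 taken into the rule were not called at 120 days by edgeR, whereas DESeq2 called all 5. LOC110259451, next to HSD17B4 on chromosome 2 (123403323 to 123413588), was at 232, 111 and 80.2 CPM in Hb and at 470, 568 and 474 CPM in Lb. The breeds did not overlap, and the log2 fold change of 1.95 had an adjusted p of 0.0505 in edgeR. It was called in 6 of 15 alternatives, among them RLE factors (adjusted p = 0.0494) and without Hb1 (2.42, adjusted p = 0.0443). LOC102166140 on chromosome 8 (54950106 to 54963084) was at 208, 217 and 169 CPM in Hb and at 105, 65.1 and 62.4 CPM in Lb (log2 fold change -1.27, edgeR adjusted p = 0.0962). MSTRG.15011.2, of 6 exons beside SHCBP1L on chromosome 9 (124221913 to 124265808), was at 40.2, 22.4 and 87.2 CPM in Hb and at 8.17, 0 and 4.26 CPM in Lb (log2 fold change -3.44, edgeR adjusted p = 0.132), with -2.74 without Hb3 and -4.34 without Lb1. LOC102165633 and LOC102166108 were higher in each Lb library than in each Hb library, at log2 fold changes of 1.48 (edgeR adjusted p = 0.102) and 1.35 (edgeR adjusted p = 0.0818). The study also named assembled genes without a transcript number, and their transcripts were looked at after the values were seen. MSTRG.12845.3, on chromosome 8 (4723595 to 4727173), was at 296, 247 and 167 CPM in Hb and at 81.7, 62.1 and 49.6 CPM in Lb (log2 fold change -1.78, edgeR adjusted p = 0.043). MSTRG.5259.1, an intergenic transcript on chromosome 3 (57578331 to 57586526), was at 166, 182 and 204 CPM in Hb and at 66.8, 34 and 48.2 CPM in Lb (log2 fold change -1.81, edgeR adjusted p = 0.0497). Both fell without overlap, and both lost their calls with any 1 of the 6 libraries left out, with an adjusted p of up to 0.161 and 0.178. MSTRG.12845.4 (-1.58, edgeR adjusted p = 0.24) and MSTRG.189.1 (-1.27, edgeR adjusted p = 0.0938) were not called by edgeR, and DESeq2 called MSTRG.189.1 (-1.28, adjusted p = 0.0206).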

How the data were processed

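The mRNA table and the lncRNA table were used as deposited. As the submitters' processing notes and methods state, reads were trimmed with fastp 0.18.0, ribosomal RNA was removed with Bowtie2 2.2.8, and the rest was aligned to the pig reference Sscrofa11.1 with HISAT2 2.1.0 and assembled with StringTie 1.3.4. The estimated counts were made by the authors before deposit after these steps, the tool and the use of the strand at that step are not given in the sources used here, and 37.5% of the nonzero mRNA values were not whole. The FPKM values were made by the authors with StringTie, scaled by transcript length and library size, and were used as deposited. Counts were rounded, and genes were kept with filterByExpr at a minimum count of 10 in the 6 libraries. They were scaled with TMM factors and tested with edgeR 4.0.16 by quasi-likelihood in R 4.3.3, with p adjusted by Benjamini-Hochberg, and were called where the adjusted p was under 0.05 and the log2 fold change was beyond 1 in either direction. The breeds at 30 days were tested in the same way, and the interaction in a model of all 12 libraries. Standard errors are the absolute log2 fold change divided by the square root of F. A group was at the floor where no library held over 3 counts. Correlations used log2 CPM with a prior count of 2.

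Alternatives were DESeq2 1.42.0, limma 3.58.1 on log2(FPKM + 1) and log2(FPKM + 0.1), RLE factors, no filter, a stricter filter that asked for 10 counts in each library of 1 breed, a single fit to the 12 libraries, a replicate block and leaving out each library. DESeq2 and leaving out libraries at 30 days, and calls by adjusted p alone, were added after the data were seen. Python 3.11.15, numpy 2.4.6, pandas 2.3.3, scipy 1.17.1 and matplotlib 3.10.9 made the summaries and plots, and the code was tested on simulated counts. The comparison and the 44 gene lists were chosen with earlier results of these data known. List symbols were looked up through RefSeq synonyms, and where several entries shared a symbol the first with an NCBI identifier was used.

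Most genes named follow a rule written before the files were read, and those named after their values were seen are marked as such in the text. It took, in each direction, the 10 mRNAs with a symbol and the 4 lncRNAs with the smallest adjusted p among calls without overlap, the 3 called mRNAs with the highest mean CPM, and at most 4 called genes with the other group at the floor. It also took the called members of each list, at most 3 by adjusted p, or the most abundant member where none was called, and 13 genes and 5 lncRNAs the study named. Positions came from the deposited assembly and RefSeq, and mRNAs within 10 kb of a lncRNA were taken as its neighbours. Read data and the comparisons between ages were not analysed here. Results of some members of the gene lists are not reported here.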

Additional observations from a re-analysis of the deposited data

Results flagged for a closer look

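The breed difference was tested at both ages in 1 model of all 12 libraries, and the named genes below were marked because edgeR called the difference between the ages. Each value is the log2 fold change of Lb over Hb minus that of La over Ha, followed by its edgeR adjusted p. Most of these genes were named for their difference at 120 days, in libraries that also enter this test. No cause was tested for any of them. Among genes of collagen and its processing, the values were 4.02 for COL1A1 (0.000372), 3.19 for COL3A1 (0.0352), 7.73 for COL5A1 (0.0119), 1.96 for COL5A2 (0.00567), 2.77 for COL4A1 (0.00159), 2.52 for COL4A2 (0.00344), 2.07 for COL15A1 (0.00789), 1.81 for COL6A3 (0.00861), 1.31 for COL16A1 (0.014), 1.55 for P3H3 (0.0274) and 1.51 for LOXL2 (0.00371). Other matrix genes gave 2.01 for BGN (0.00229), 2.22 for MFAP4 (0.00367), 1.36 for FBN1 (0.0214), 1.07 for LAMA2 (0.0379), 2.48 for MMP23B (0.0158), 2.06 for MMP28 (0.0188) and 2.43 for HTRA3 (0.00159). Contractile, stromal, endothelial and macrophage markers gave 2.12 for CNN1 (0.0074), 2.54 for ACTA2 (0.00114), 3.37 for ACTG2 (0.00273), 2.35 for PI16 (0.00754), 1.73 for CD34 (0.0142), 2.09 for PDGFRB (0.0282), 1.92 for PECAM1 (0.0149) and 1.94 for AIF1 (0.0286). Signalling genes gave 2.23 for TGFBI (0.00159), 2.19 for FSTL1 (0.0182), 1.51 for TGFB3 (0.018), 1.94 for SFRP4 (0.0218) and 2.74 for IGFBP6 (0.0193).

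Steroid genes gave 4.0 for CBR1 (0.000143), 4.06 for HSD11B2 (0.00914) and 5.60 for CYP21A2 (0.0255), and immune genes gave 1.99 for C4A (0.00365) and 1.07 for SLA-DMB (0.039). Other genes higher in Lb at 120 days gave 9.85 for HPD (0.00083), 5.02 for DSG3 (0.00402), 11.14 for DUSP3 (0.00237), 10.92 for NAA30 (0.00159) and -3.95 for PTTG1IP (0.017). The values of HPD, DSG3, COL5A1, DUSP3 and NAA30 rest on Hb libraries at or near 0 counts, and those of NPC1L1 and HABP2 below on Lb libraries near 0. HABP2 and SPATA3 were too low at 30 days to be tested at that age alone. Genes lower in Lb at 120 days gave -2.25 for EXOSC9 (0.00114), -2.16 for ABCG2 (0.0039), -2.12 for NCAN (0.00664), -4.28 for GNMT (0.0408), -3.38 for KCNT1 (0.0305), -1.29 for TIAM2 (0.0155), -1.54 for GSG1 (0.0303), -2.59 for UBQLNL (0.0086), -4.08 for NPC1L1 (0.0389), -5.75 for HABP2 (0.041), -1.21 for CRISP2 (0.0296) and -2.26 for SPATA3 (0.0319).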

How the results depend on the processing

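Of 1580 values of 112 named genes and lncRNAs under other settings, 1290 kept their direction and their side of the threshold, 245 kept their direction but lost the threshold, 31 kept it and passed the threshold, and 14 changed sign. The cause was not tested for any of these changes, except that leaving out a library leaves fewer samples. Of 85 named and called ones, 27 kept their call in every alternative tried, among them TMSB15B, COL1A1, COL4A1, COL4A2, COL5A2, BGN, FBN1, ACTA2, CNN1, EXOSC9 and ABCG2. Calls were lost without Lb2 (45), Hb3 (39), Lb3 (37), Lb1 (33), Hb1 (10) or Hb2 (4), in limma on log2(FPKM + 1) (19) or log2(FPKM + 0.1) (4), with all 12 libraries in 1 fit (5), RLE factors (4), DESeq2 (2) or no filter (1).

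For mRNAs at 120 days, 628 were called by edgeR, against 1224 by DESeq2 and 1258 when the 6 libraries were fitted together with the others, and 97 (without Lb2) to 1029 (without Hb2) with 1 library left out. For lncRNAs at 120 days, 101 were called, against 297 by DESeq2, 167 by limma on log2(FPKM + 0.1), 168 with the stricter filter and 11 (without Lb3) to 54 (without Hb3) with 1 library left out. The interaction called 890 mRNAs, against 1377 by DESeq2 and 437 (without Ha1) to 1242 (without Hb2), and less than 890 by over 1.5 times also without Ha2, Hb3, La1, La2, La3 or Lb2. It called 1 lncRNA, against 104 by DESeq2, 5 without a filter and 0 to 25 (without Ha3). At 30 days 133 lncRNAs were called, against 235 by DESeq2 and 47 (without La3) to 125 (without Ha3), and 52, 52, 67 and 50 without Ha1, Ha2, La1 and La2.

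Of the fibrillar collagens, 6 rose, and 3 to 6 with 1 library left out. The other lists gave 6 and 2 to 6 for basement membrane collagens, 5 and 3 to 4 for other collagens, 7 and 2 to 7 for processing enzymes, 15 and 4 to 15 for proteoglycans, 6 and 1 to 9 for the TGF-beta family, 5 and 0 to 6 for WNT genes and 4 and 0 to 5 for the genes the study named. With limma on log2(FPKM + 1), 3 genes of the TGF-beta family and 3 WNT genes rose, and 9 WNT genes rose by DESeq2 and 8 with all 12 libraries in 1 fit.

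The signs that changed were of genes without a call. MS4A2 (-0.19) was at 0.03 by limma on log2(FPKM + 0.1) and from -0.60 to 0.17 with 1 library left out, with 0.03 without Lb2. HBB (0.55) ranged from -0.08 (without Lb3) to 1.20, and SHCBP1L (-0.15) from -0.29 to 0.02 (without Hb1). S100B (-0.01) was at 0.32 and 0.30 by limma with 0.1 and 1 added and from -0.37 to 0.89 (without Hb2), with 0.26 without Lb1. EIF1AY (-0.04) was at 0.11 and 0.10 by limma and from -0.19 to 0.14 (without Lb2), with 0.09 without Hb2.

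With a replicate block, which treats libraries of the same number as a set, 154 mRNAs were called, of which 146 were among the 628, and edgeR called 0 lncRNAs, with 469 at an unadjusted p under 0.05. The replicate block lost 42 of the named calls. Under the replicate block 3 processing enzymes, 7 proteoglycans, 1 gene of the TGF-beta family, 0 WNT genes and 1 gene named by the study rose, and S100B was at 0.21. The labels give no pairing, and the deviations of Hb and Lb libraries of the same number correlated at 0.0285, -0.0382 and 0.0178 for mRNAs and 0.0508, 0.0241 and 0.0491 for lncRNAs.

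With 3 boars per breed and no label for pen, litter or preparation day, breed cannot be told apart from those. The lncRNA tables held 540920 to 767783 counts per library at 120 days, where 3 counts equal 4.09 to 5.23 CPM, so folds of low lncRNAs are bounds. The tissue was whole testis. The study counted spermatogenic and Sertoli cells on sections, but those counts were not used here.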
